A study of Mus musculus with 24 samples.

Results

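The genes described here are the 10 measured members of the insulin-like growth factor (IGF) axis, out of 19505 genes on the arrays. They were taken by name, as the probe sets of the deposited table that name exactly 1 of the genes Igf1, Igf2, Igf1r, Igf2r, Igfbp1, Igfbp2, Igfbp3, Igfbp4, Igfbp5 and Igfals, and each gene had 1 such probe set. Values are log2 probe set levels, so a difference of 1 is a doubling, and levels are compared between groups for the same gene but not between genes. The study measured 24 samples of outbred ICR-CD1 mice, 1 Affymetrix array each, in 6 groups of 4. The mice were grandoffspring of control grandfathers or of obese grandfathers, the arm labelled SL, whose meaning the labels do not give. Each arm was sampled at embryonic day 7.5 (ED7.5) and embryonic day 14.5 (ED14.5), both labelled whole embryo, and as liver at postnatal day 7.5 (PD7.5). No gene was altered and no agent was given to these mice as far as the labels say. Nothing in the labels ties a sample to a litter or a grandfather, so p-values measure only the spread between these samples, which may be technical.

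IGF1 and IGF2 are secreted growth factors that act through the type 1 receptor, a tyrosine kinase encoded by Igf1r, whereas the product of Igf2r carries IGF2 to lysosomes for breakdown. Binding proteins hold the ligands in blood and tissue fluid, and the acid-labile subunit encoded by Igfals builds the long-lived circulating complex with IGF and IGFBP3 or IGFBP5. The liver is the main source of circulating IGF1 after birth under growth hormone, IGF2 is the main fetal ligand, and hepatic Igfbp1 is known as a gene that insulin represses and fasting induces. Igf2 and Igf2r are imprinted in mice, with expression mainly from the paternal and the maternal allele respectively.

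The background of an array was set where 75% of its 5222 intron control probe sets lie, and it ran from 5.05 to 6.53 across the arrays. Between 48.3% and 64.1% of named genes lay above it. Replicate 2 of the ED7.5 control group and replicate 1 of the ED14.5 control group had the highest backgrounds, at 6.53 and 6.51. The number of arrays limits the precision of every comparison. Marker genes did not match whole embryos at either embryonic age. All 14 decidua markers lay above background on all ED7.5 arrays, while 1 of 10 epiblast and streak markers did in either arm. Of 9 measured visceral endoderm markers 2 did in controls and 5 in SL, and of 7 measured trophoblast markers 1 did in either arm. At ED14.5, 14 of 15 hepatocyte markers and 9 of 9 measured erythroid markers lay above background on all arrays of each arm, and 0 of 12 neuron and muscle markers did. The ED7.5 arrays thus carried markers of the decidua, a tissue of the pregnant uterus, and the ED14.5 arrays those of fetal liver, so age and tissue cannot be told apart in what follows. In such bulk samples fewer cells of a type and less RNA per cell cannot be told apart either.

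Igf2 was the ligand with the largest change between the embryonic ages. At ED7.5 the control arrays read 9.21, 9.34, 9.25 and 9.70, and the SL arrays read 9.32, 8.04, 9.84 and 8.34. At ED14.5 the control arrays read 13.58, 13.54, 13.54 and 13.46, and the SL arrays read 13.44, 13.46, 13.58 and 13.57. All 8 arrays at ED14.5 lay far above all 8 arrays at ED7.5. The rise was 4.16 (SE 0.12, 17.8-fold, adjusted p = 2.16e-09, limma) among control arrays and 4.63 (SE 0.35, adjusted p = 1.84e-06) among SL arrays. In liver the control arrays read 13.68, 13.85, 13.94 and 13.80, and the SL arrays read 13.90, 13.75, 13.95 and 13.83. Both liver groups lay above both ED14.5 groups without overlap, by 0.29 in controls (SE 0.10, adjusted p = 0.0484) and by 0.35 in SL (SE 0.11, adjusted p = 0.0248). That last step was small and did not hold under several settings. Quantile normalization of the arrays compared turned it to -0.022 in controls and lowered it to 0.055 in SL. In controls it was lost without any 1 of the 4 ED14.5 arrays or without liver replicate 2, 3 or 4, with an adjusted p of up to 0.116, and in SL without ED14.5 replicate 1 or 2 or liver replicate 1 or 3, with an adjusted p of up to 0.067. The Igf2 probe set stood above at least 99.959% of named genes on every ED14.5 and liver array, near the upper end of the array's scale.

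Igf1 followed another course, lowest at ED14.5. The ED7.5 control arrays read 11.51, 11.60, 11.72 and 11.70, and the SL arrays 11.89, 12.07, 11.92 and 12.05. The ED14.5 control arrays read 9.95, 9.99, 9.86 and 9.40, and the SL arrays 9.64, 9.60, 9.66 and 9.65. The liver control arrays read 12.77, 12.95, 13.17 and 13.09, and the SL arrays 13.02, 12.96, 13.10 and 13.02. Every liver array was above every ED7.5 array, and every ED7.5 array was above every ED14.5 array. From ED7.5 to ED14.5 Igf1 fell by 1.83 in controls (SE 0.14, adjusted p = 1.82e-06) and fell by 2.35 in SL (SE 0.088, adjusted p = 1.48e-08). From ED14.5 to liver it rose by 3.19 in controls (SE 0.16, 9.14-fold, adjusted p = 2.48e-07) and by 3.39 in SL (SE 0.10, adjusted p = 1.17e-08). Liver exceeded ED7.5 by 1.36 in controls and by 1.04 in SL. In liver Igf1 stood above at least 99.723% of named genes on every array, also near the upper end of the scale.

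The receptors moved least. Igf1r, the signalling receptor, had control means of 6.42 at ED7.5, 7.61 at ED14.5 and 6.74 in liver, and SL means of 6.47, 7.71 and 6.70. It was highest at ED14.5 with no overlap with the other ages. At ED7.5 it lay near background, above it on 3 of 4 control arrays, so its span may be understated. Its values at ED7.5 and in liver overlapped, and that difference of 0.32 in controls did not pass the threshold (95% interval -0.10 to 0.74, adjusted p = 0.187). Igf2r, the clearance receptor, had control means of 9.60, 10.97 and 9.83 and SL means of 9.56, 10.82 and 9.62. It too was highest at ED14.5, where the 4 control arrays lay within 0.082 of each other, and its difference between liver and ED7.5 did not pass the threshold in controls (0.23, adjusted p = 0.208) or in SL (0.058, adjusted p = 0.698). Both receptors rose from ED7.5 to ED14.5, Igf1r by 1.19 (SE 0.16) and Igf2r by 1.37 (SE 0.10) in controls. Both fell from ED14.5 to liver, Igf1r by a difference of -0.87 and Igf2r by -1.14 in controls. The 3 age means of these receptors spanned 1.19 and 1.37 in controls, the smallest spans of the 10 genes.

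Igfbp1 and Igfbp3 lie next to each other on mouse chromosome 11 and moved in opposite directions between the embryonic ages. Igfbp1, the insulin-repressed liver binding protein, was below background on all 8 ED7.5 arrays. At ED14.5 its control arrays read 8.63, 8.69, 8.71 and 9.19, and its SL arrays read 9.79, 9.31, 10.14 and 9.51. In liver its control arrays read 11.61, 11.35, 11.86 and 12.32, and its SL arrays read 12.09, 11.86, 11.63 and 12.15. It was the lowest at ED7.5 and the highest in liver on every array. Against the ED7.5 background, Igfbp1 was at least 8.90-fold higher at ED14.5 in controls and at least 17.0-fold higher in SL, and at least 70.2-fold and 80.7-fold higher in liver. From ED14.5 to liver it rose by 2.98 in controls (SE 0.22, adjusted p = 2.56e-06) and by 2.24 in SL (SE 0.20, adjusted p = 7.89e-06). Igfbp3, the main carrier of IGF in blood, had its highest values at ED7.5. The ED7.5 control arrays read 11.88, 11.92, 12.18 and 11.98, the ED14.5 control arrays 8.74, 9.13, 8.51 and 8.64, and the liver control arrays 10.38, 10.14, 10.46 and 10.59. No array of 1 age reached the range of another. Igfbp3 fell by 3.23 in controls (SE 0.15, 9.41-fold, adjusted p = 3.16e-08) and fell by 2.99 in SL from ED7.5 to ED14.5, then rose by 1.64 and 1.49 to the liver.

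The promoters of these neighbours are shown because their directions were opposite between the embryonic ages, although both rose from ED14.5 to liver. Each is the 250 bases before the RefSeq transcript start (GRCm38.p6), 5′ to 3′ on the gene's own strand. Capitals mark the letters CAAAACA, the core of the insulin response or FOXO element, searched on both strands. Igfbp1 lies at chr11:7197537-7197786 (+ strand) and Igfbp3 at chr11:7213924-7214173 (- strand).
Igfbp1: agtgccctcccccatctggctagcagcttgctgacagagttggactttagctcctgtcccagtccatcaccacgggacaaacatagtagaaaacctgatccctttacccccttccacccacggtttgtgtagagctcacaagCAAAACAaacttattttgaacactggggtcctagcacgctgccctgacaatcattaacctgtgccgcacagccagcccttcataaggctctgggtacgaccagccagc
Igfbp3: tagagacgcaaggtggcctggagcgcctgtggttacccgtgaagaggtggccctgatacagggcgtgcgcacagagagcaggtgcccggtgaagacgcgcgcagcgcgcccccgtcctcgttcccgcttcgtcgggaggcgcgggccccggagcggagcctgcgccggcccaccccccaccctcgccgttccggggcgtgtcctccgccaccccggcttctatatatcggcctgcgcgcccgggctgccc
The Igfbp1 window held 5 CpG and the Igfbp3 window 32, against a median of 6 over 32851 RefSeq windows of that length. CAAAACA stood at -108 to -102 of Igfbp1, did not overlap another motif searched, and was in 1 of the 16 windows of the 10 genes and in 5.56% of all windows. The receptor promoters held 42 CpG for Igf1r and 27 for Igf2r, and the single Igf1 window 5. A match describes letters only and is not evidence of binding.

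Igfbp2 and Igfbp5 are neighbours on mouse chromosome 1, and both had their lowest values at ED14.5. Igfbp2, an abundant neonatal liver binding protein, read 8.29, 8.57, 8.75 and 9.33 on ED7.5 control arrays. It read 7.03, 6.63, 7.03 and 6.17 at ED14.5 and 12.95, 12.93, 13.06 and 13.04 in liver on control arrays. The lowest ED14.5 value, 6.17 on replicate 4, stood against a background of 6.00, so folds from that age start near background. The 3 ages did not overlap, and replicates spread widely at the embryonic ages but little in liver. In liver Igfbp2 stood above at least 99.78% of named genes on every array, near the upper end of the array's scale. Its small spread there may reflect that position, which was not tested. Igfbp2 fell by 2.02 (SE 0.25, adjusted p = 6.21e-05) and then rose by 6.28 (SE 0.19, 77.8-fold, adjusted p = 1.26e-08) in controls, with changes of -1.60 and 5.97 in SL. Igfbp5, a binding protein of matrix and mesenchyme, had control means of 9.18 at ED7.5 and 8.40 in liver, ran from 6.78 to 7.23 on ED14.5 control arrays, and had SL means of 9.27, 6.85 and 8.24. It fell by 2.18 (SE 0.15) and rose by 1.39 (SE 0.13) in controls, so that liver stayed below ED7.5, by a difference of -0.78 in controls and -1.03 in SL. Igfbp4, a binding protein that mainly inhibits IGF action, had control means of 10.66, 9.94 and 12.15 and SL means of 10.62, 10.12 and 12.14. It fell by 0.72 (SE 0.11) in controls to ED14.5, with a difference of -0.50 (SE 0.11) in SL, and rose by 2.20 and 2.03 to the liver.

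Igfals, whose product completes the circulating complex, was below background on all 8 ED7.5 arrays. At ED14.5 it read 6.38, 6.55, 6.83 and 5.98 on control arrays and 6.08, 5.89, 6.11 and 6.13 on SL arrays, above background on 2 of 4 in each arm. In liver it read 10.44, 10.20, 10.63 and 10.70 on control arrays and 10.33, 10.20, 10.61 and 10.70 on SL arrays. The liver range lay wholly above the ED14.5 range. It rose from ED14.5 to liver by 4.06 in controls (SE 0.19, 16.6-fold, adjusted p = 1.67e-07) and by 4.41 in SL (SE 0.14, adjusted p = 1.54e-08). Against the ED7.5 background it was at least 28.6-fold higher in liver in controls, and its ED14.5 level was too near background for such a bound. The most upstream of its 3 RefSeq promoter windows, at chr17:24877594-24877843 (+ strand, GRCm38.p6), is shown because growth hormone acts on Igfals through STAT5. Capitals mark a match to the STAT letters TTCNNNGAA, searched on both strands.
Igfals: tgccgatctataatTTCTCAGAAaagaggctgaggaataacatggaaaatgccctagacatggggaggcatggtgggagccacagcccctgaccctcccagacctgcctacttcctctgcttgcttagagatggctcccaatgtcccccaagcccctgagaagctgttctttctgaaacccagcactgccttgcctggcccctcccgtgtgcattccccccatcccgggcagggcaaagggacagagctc
The match TTCTCAGAA stood at -236 to -228 and overlapped no other motif searched. The same pattern occurred in a second Igfals window, as TTCCTAGAA at -58 to -50 of that window's start, and in 7.02% of all windows. The second Igfals window lies downstream of the one shown. Which match growth hormone uses, if any, was not tested.

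**Figure D1:**
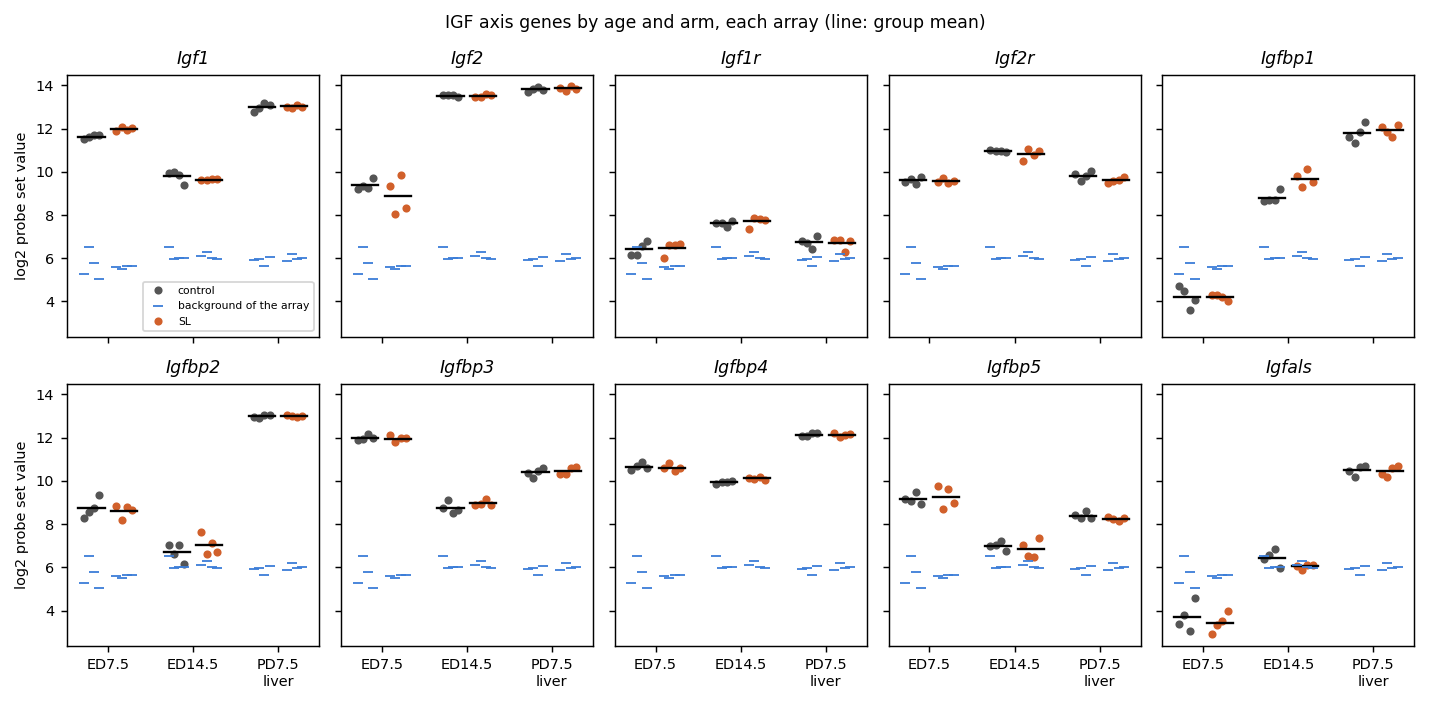
Log2 probe set value (y axis) of each of the 10 genes on each of the 24 arrays, by age and arm, with points for arrays, black lines for group means and blue dashes for the background of each array. Igf2, Igfbp1 and Igfals were low at ED7.5, Igf1, Igfbp2, Igfbp3, Igfbp4 and Igfbp5 were lowest at ED14.5, and both receptors were highest at ED14.5.

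Counted over the axis, 10 of 10 genes passed the threshold of 0.05 for adjusted p from ED7.5 to ED14.5 in controls, where 51.9% of all genes did, and 10 of 10 in SL, where 53.6% did. In controls 5 were higher (25.6% of all genes) and 5 lower (26.3%). From ED14.5 to liver 10 of 10 passed in controls, against 45.2% of all genes, and 10 of 10 in SL, against 45.8%. In controls 8 were higher (20.5%) and 2 lower (24.6%). From ED7.5 to liver 8 of 10 passed in controls, against 49.9%, and 8 of 10 in SL, against 51.4%. In controls 6 were higher (20.2%) and 2 lower (29.7%). Directions were the same in both arms for each of these calls. The comparisons between ages share arrays, each group entering 2 of them within an arm. The median difference of the 10 genes in controls was 0.24 from ED7.5 to ED14.5, where it was 0.027 over all genes, and 1.92 from ED14.5 to liver, where it was -0.025 over all genes.

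**Figure D2:**
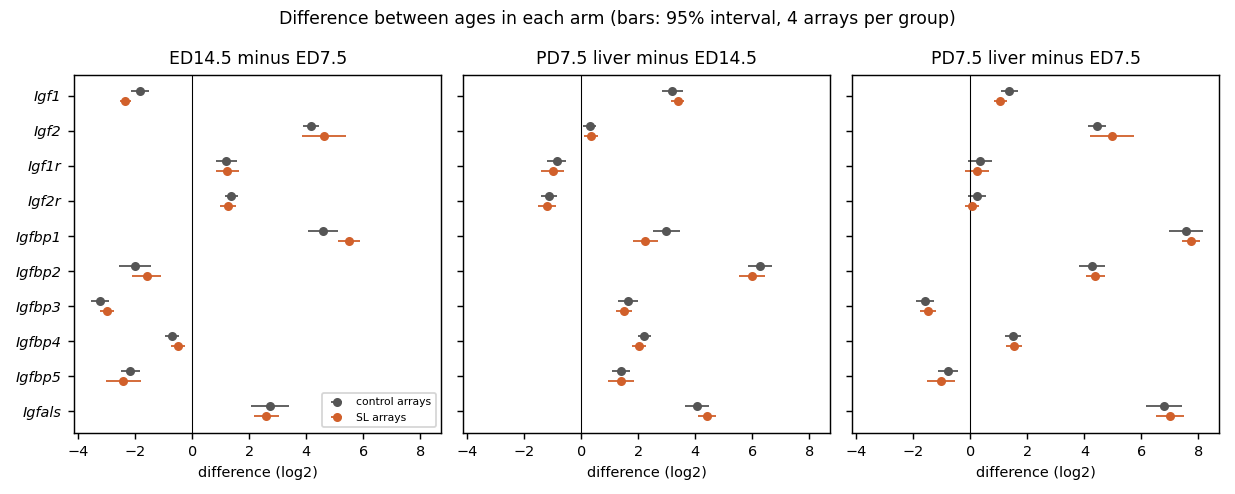
Difference in log2 level between ages (x axis) for each of the 10 genes, in control arrays (grey) and SL arrays (orange), with 95% intervals and 4 arrays per group. Igf1 and Igfbp2 to Igfbp5 lay left of 0 from ED7.5 to ED14.5 and right of 0 from ED14.5 to liver, and the receptors did the reverse.

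Genes that regulate or transmit IGF signals changed with age as well. Of 5 other measured binding protein genes, 3 fell from ED7.5 to ED14.5 in both arms and 0 rose, where 22.9% of all genes fell and 21.5% rose in both arms. Igfbp6, which prefers IGF2, fell at least 7.87-fold to below background in controls, and Igfbp7, a low-affinity relative of vessel walls, changed by -3.06 (SE 0.13) and then rose by 2.59 (SE 0.13) to the liver. Of 8 measured proteases of binding proteins and their inhibitors, 7 fell from ED7.5 to ED14.5 in both arms and 0 rose, where 22.9% of all genes fell in both arms. Htra1, a secreted protease that also is among the decidua markers, fell from 12.54 to below background in controls, at least 85.0-fold, and Adam12, a metalloprotease that cleaves binding proteins, changed by -3.66 (SE 0.11). Of the growth hormone axis, 4 of 6 measured genes rose from ED7.5 to ED14.5 in both arms and 0 fell, where 21.5% of all genes rose in both. Ghr, the growth hormone receptor, rose by 2.05 (SE 0.12) and by a further 2.57 (SE 0.098) to the liver in controls, reaching 12.44. Socs2, a growth hormone target that dampens its signal, rose by 2.87 (SE 0.14) from ED14.5 to liver, while Jak2, the kinase bound to the receptor, changed by -1.24 (SE 0.15).

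Igf2bp3, an oncofetal protein that binds Igf2 mRNA, rose by 3.95 (SE 0.28) from ED7.5 to ED14.5 in controls and was the only one of its family of 3 measured under its name. Among 8 measured insulin receptor family genes and substrates, 3 rose and 2 fell from ED7.5 to ED14.5 in both arms, beside 21.5% and 22.9% of all genes. Irs2, the main insulin receptor substrate of liver, rose by 2.52 (SE 0.13), and Insr, the insulin receptor, rose by 0.93 (SE 0.11) from ED14.5 to liver. A further list held 7 measured adaptors and brakes of this signalling, Grb10, Grb14, Ptpn1, Socs1, Socs3, Sh2b2 and Trib3. Of these, 1 rose and 3 fell from ED7.5 to ED14.5 in both arms, beside the same 21.5% and 22.9%. Grb14, an adaptor that inhibits the insulin receptor, rose from ED14.5 to liver by 2.37 (SE 0.19), and Grb10, its imprinted relative, changed by -0.55 (SE 0.11). Of 19 measured genes from PI3 kinase to mTOR and FOXO, 6 rose and 6 fell from ED7.5 to ED14.5 in both arms (21.5% and 22.9% of all genes). From ED14.5 to liver 2 rose and 7 fell in both arms (16.6% and 20.4% of all genes). Foxo3 rose by 1.97 and then changed by -2.32, and Foxo1 changed by -1.45 and then rose by 1.78, so these transcription factors downstream of AKT ran opposite courses.

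Imprinted growth genes also divided by age. Of 11 measured, 6 rose and 2 fell from ED7.5 to ED14.5 in both arms (21.5% and 22.9% of all genes), and 0 rose and 6 fell from ED14.5 to liver, where 16.6% of all genes rose and 20.4% fell in both arms. Dlk1, a fetal growth factor of hepatoblasts, rose by 5.69 (SE 0.11) and then changed by -3.98 (SE 0.32) in controls. Plagl1, a transcription factor known to activate Igf2, changed by -1.43 (SE 0.23) from ED14.5 to liver. Of 9 measured genes of lysosomal enzymes and their mannose 6-phosphate tagging, the cargo system that shares the Igf2r product, 1 rose and 5 fell from ED7.5 to ED14.5 in both arms, beside 21.5% and 22.9% of all genes. Hexa changed by -2.12 (SE 0.13), Ctsl by -1.62 (SE 0.10) and Gnptab, the tagging enzyme, by -1.46 (SE 0.12) in controls.

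The genes with the most similar course were found as those with the smallest root mean square difference of centred log2 values over the 24 arrays, among 12015 genes above background on every array of at least 1 group. This likeness is mostly one of the 3 ages and is given as a description. For Igf2 they were Oit3 (0.29), Cpn1 (0.32) and the probe set named Mir675 (0.38), a microRNA gene on chromosome 7 like Igf2. Mir675 had control means of 9.24, 12.99 and 13.40. For Igf1 they were Mtus1 (0.27), Sdc4 (0.33) and Dock4 (0.34). For Igfbp1 they were the plasma protein genes F12 (0.41) and Serpina7 (0.45) and the glucokinase regulator Gckr (0.47). For Igfals they were the plasma protein gene Cp (0.42), Dnaic1 (0.45) and Cfhr2 (0.48). For Igfbp3 they were Sntb2 (0.20), Parp3 (0.21) and Klf9 (0.22), and for Igfbp4 Elovl5 (0.16), Nipsnap3b (0.17) and Tmem243 (0.18). For Igfbp2 they were Prg4 (0.58), Gm4951 (0.65) and Slc25a47 (0.68), and for Igfbp5 Dap (0.28), Dnajb9 (0.28) and Fkbp7 (0.29).

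The comparison of arms asks whether descent from an obese grandfather went with other levels of these genes. At ED7.5 the arrays carried decidua markers, and the decidua is tissue of the pregnant dam, not of the grandoffspring. ED7.5 differences between arms may therefore be largely of the dam's RNA, and the share of each was not tested. None of the 10 genes passed the threshold in the SL to control comparison at any age. At ED7.5 0 of 10 passed, where 0.00513% of all genes did. At ED14.5 0 of 10 passed, where 0.0513% did. In liver 0 of 10 passed, where 0% of all genes did and 7.91% had an unadjusted p under 0.05. Groups did not overlap for 1 of 10 genes at ED7.5 (3.05% of all genes), 2 of 10 at ED14.5 (7.98%) and 0 of 10 in liver (4.43%). The standard errors of the 10 genes ran from 0.086 to 0.35 at the 3 ages. Tests on simulated data at this size recovered 69% of changes of 1 log2 unit at both embryonic ages and 51% in liver. The simulated data held 200 changed genes, more than passed in any comparison of arms here. With fewer changed genes the adjusted threshold is stricter, so these shares may overstate the recovery in the real comparisons.

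The largest difference was that of Igfbp1 at ED14.5. The SL arrays given above, 9.31 to 10.14, all lay above the control arrays, 8.63 to 9.19. The difference was 0.88 (SE 0.20, 95% interval 0.44 to 1.32, 1.85-fold), with an adjusted p of 0.147 and rank 174 by p among all genes. When the variance prior followed intensity and was fitted robustly, the adjusted p became 0.0125, a setting under which 283 of 19505 genes passed, and over the 7 settings other than leaving out an array it ran from 0.0125 to 0.309. Leaving out each array in turn gave differences of 0.73 to 1.01, and without the high-background control replicate 1 it was 0.83 (adjusted p = 0.303). The hepatocyte marker list had overlapping array means in both arms, 11.64 to 11.77 in controls and 11.66 to 11.81 in SL. The erythroid list had 11.72 to 11.81 in controls and 11.61 to 11.71 in SL, which do not overlap, and its part in the result was not tested. In liver the Igfbp1 difference was 0.15 (SE 0.22, 95% interval -0.34 to 0.63), and at ED7.5 the gene was below background in both arms.

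Igf1 at ED7.5 was the other larger difference without overlap, 0.35 higher in SL (SE 0.099, 95% interval 0.13 to 0.57, 1.27-fold, adjusted p = 0.76). Without control replicate 2, the array of highest background, it was 0.34 (adjusted p = 0.862). Markers of mesenchyme moved with it. Their array means were 8.69 to 8.90 in controls and 8.96 to 9.02 in SL, 9 of 11 measured markers lay above background on all arrays of each arm, and 7 of 11 differences were above 0, with none past the threshold. Their part in the Igf1 difference was not tested. The decidua list had overlapping array means, 11.74 to 11.85 in controls and 11.76 to 11.88 in SL. At ED14.5 Igf1 differed by -0.17 (95% interval -0.47 to 0.14) and in liver by 0.032 (95% interval -0.26 to 0.32).

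Igf2 differed most in spread at ED7.5. Its SL arrays split into higher values on replicates 1 and 3 (9.32 and 9.84) and lower values on replicates 2 and 4 (8.04 and 8.34), with an SD of 0.84 that exceeded the SD of 99.5% of genes in that group. The control SD was 0.22, near the median gene's 0.20. The difference of means was -0.49 (SE 0.35, 95% interval -1.28 to 0.30, adjusted p = 0.961). Trophoblast markers, 1 of 7 measured above background on all arrays in either arm, had array means of 5.38, 5.08, 5.62 and 6.51 in controls and 5.01, 4.86, 6.20 and 5.21 in SL. The SL arrays highest and lowest in Igf2, replicates 3 and 2, were also highest and lowest in this list, but replicate 1 was lower in the list than replicate 4 and higher in Igf2. The part of such tissue in the Igf2 values was not tested. At ED14.5 Igf2 differed by -0.018 (95% interval -0.21 to 0.18) and in liver by 0.041 (95% interval -0.23 to 0.31). In both, Igf2 lay near the upper end of the array's scale, so differences there may be understated.

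Among the binding proteins at ED14.5, 4 of 5 differences were above 0, with a median of 0.22 against 1e-04 over all genes. Igfbp4 read 9.85, 9.94, 9.96 and 10.02 on control arrays and 10.15, 10.09, 10.20 and 10.03 on SL arrays, a small separation without overlap of 0.17 (SE 0.088, adjusted p = 0.492). Igfbp2 differed by 0.31 (SE 0.26), Igfbp3 by 0.22 (SE 0.14) and Igfbp5 by -0.15 (SE 0.20), with overlapping groups. Igfals differed by -0.38 at ED14.5 (SE 0.17, 95% interval -0.76 to -0.0039, adjusted p = 0.436), and only 2 arrays of each arm read it above background. In liver the binding proteins ranged from -0.15 for Igfbp5 to 0.15 for Igfbp1, and Igfals differed by -0.031. The receptors differed by at most 0.21 in size at any age, with -0.21 for Igf2r in liver (95% interval -0.52 to 0.098).

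**Figure D3:**
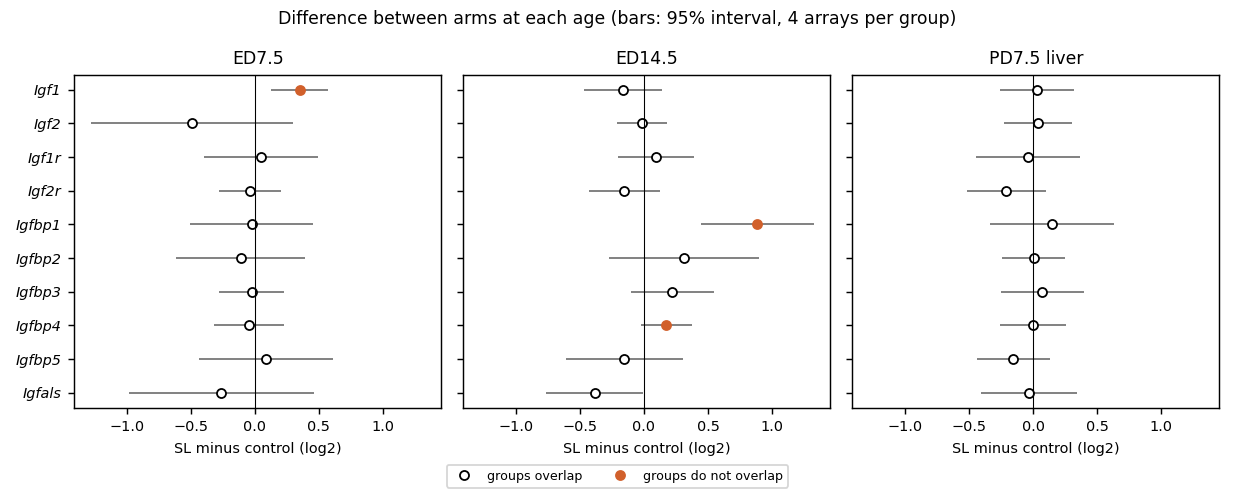
Difference in log2 level between SL and control arrays (x axis) of each of the 10 genes at each age, with 95% intervals and 4 arrays per group; filled points mark genes whose groups do not overlap. The filled points are Igf1 at ED7.5 (0.35) and Igfbp1 (0.88) and Igfbp4 (0.17) at ED14.5, and no liver point lies farther from 0 than 0.21.

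The SL difference did not pass the threshold for a change between ages in any of the 10 genes, in a fit of all 24 arrays. Between ED7.5 and ED14.5, 0 of 10 passed, where 0.0769% of all genes did. Between ED14.5 and liver 0 of 10 passed (0.0256%), and between ED7.5 and liver 0 of 10 (0.00513%). The SL difference of Igf1 was lower at ED14.5 than at ED7.5 by a difference of -0.51 (SE 0.16, adjusted p = 0.397). That of Igfbp1 was higher by 0.91 (SE 0.32, adjusted p = 0.463) and lower in liver than at ED14.5 by a difference of -0.74 (SE 0.32, adjusted p = 0.42). These values share the ED14.5 arrays.

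Igfbp1 was read beside 13 measured liver genes known to respond to fasting or FOXO factors, a list chosen with results of these data known. At ED14.5 8 of 13 were above 0 in SL, the median was 0.16, and 1 passed the threshold, where 0.0513% of all genes did. That gene was Angptl4, a fasting-induced inhibitor of lipoprotein lipase, which read 8.49, 8.54, 8.83 and 8.55 on control arrays and 9.52, 9.54, 9.62 and 9.33 on SL arrays. Every SL array was above every control array. The difference was 0.90 (SE 0.11, adjusted p = 0.0456), and it lost the threshold without any 1 of the 8 arrays (adjusted p from 0.0689 to 0.139). Pdk4, a kinase that limits glucose oxidation, differed by 1.20 (SE 0.17, adjusted p = 0.0611). Ddit4, an mTOR inhibitor, differed by 0.87 (SE 0.13, adjusted p = 0.0656). Cpt1a, the gate of mitochondrial fat oxidation, differed by 0.64 (SE 0.13, adjusted p = 0.124). The groups did not overlap for any of them. Pdk4 and Ddit4 lay near background on ED14.5 control arrays, each above it on 3 of 4. Sesn1, a stress-induced inhibitor of mTOR, differed by 0.16 (SE 0.089) with no overlap and Klf15, a fasting-induced transcription factor, by 0.36 (SE 0.15) with overlap. On the other side of 0 were Cited2 at -0.33 (SE 0.12, no overlap), Trib1 at -0.29 (SE 0.21, above background on 2 control arrays and 0 SL arrays), the coactivator gene Ppargc1a at -0.18 (SE 0.13) and Irs2 at -0.053 (SE 0.11). None of these passed the threshold. Pck1, G6pc and Tat were below background on all 8 arrays, and Pck1 and Tat were among the 8 genes above 0.

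Of 6 measured growth hormone axis genes at ED14.5, 2 were above 0 and 4 below, with a median of -0.11 and 0 past the threshold. Cish, a target of STAT5, differed by -0.53 (SE 0.10, adjusted p = 0.102) with no overlap, Socs2 by -0.32 (SE 0.12, adjusted p = 0.357) and Ghr by -0.17 (SE 0.089, adjusted p = 0.506). The differences of the kinase Jak2 (0.052), Stat5a (0.042) and Stat5b (-0.052) were smaller than their standard errors. In liver the fasting list had a median of -0.0076, with 6 of 13 above 0 and 0 past the threshold. All 6 growth hormone axis genes were above 0 there, with a median of 0.090 and 0 past the threshold. Some lay very near 0. Socs2 had liver means of 10.20 in both arms, and Ghr had 12.44 in controls and 12.48 in SL. The shared sign is not read as a rise. The SL difference of Pdk4 was higher at ED14.5 than at ED7.5 by 1.40 (SE 0.23, adjusted p = 0.0107). Its ED14.5 control arrays read 6.03 to 6.46 against backgrounds of 5.98 to 6.51, so the size is uncertain. The SL difference of Ddit4 was lower in liver than at ED14.5, by a difference of -1.74 (SE 0.31, adjusted p = 0.0472). That call was lost in 12 of 16 fits that leave out 1 array, with an adjusted p of up to 0.122. Ddit4 was above background on 3 of 4 ED14.5 control arrays and 3 of 4 liver SL arrays.

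**Figure D4:**
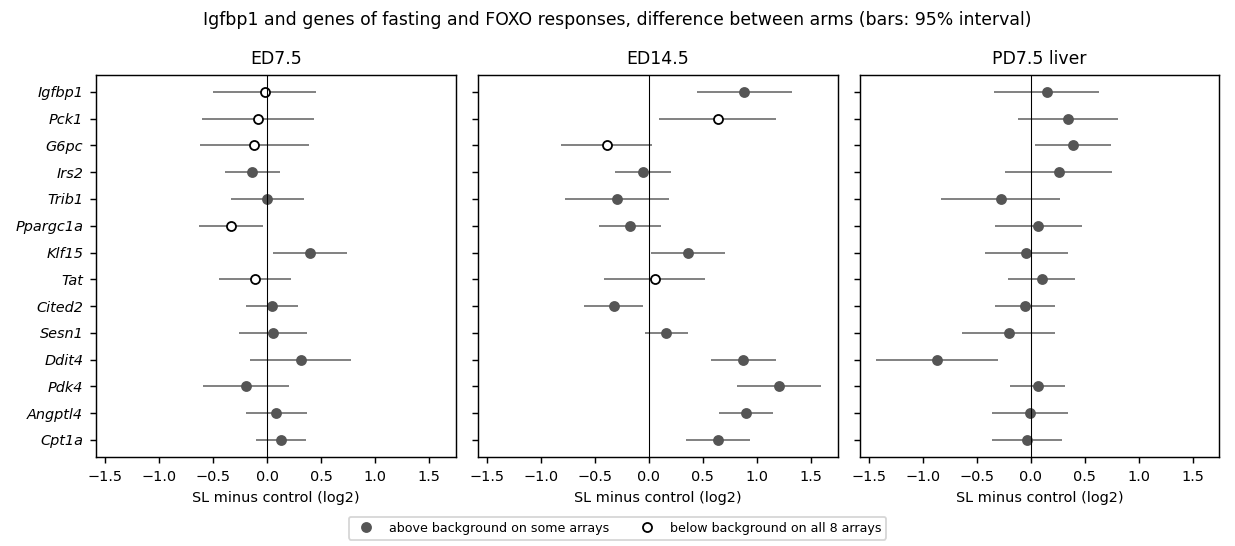
Difference in log2 level between SL and control arrays (x axis) of Igfbp1 and 13 genes of fasting and FOXO responses at each age, with 95% intervals; open points are genes below background on all 8 arrays. At ED14.5 Pdk4 (1.20), Angptl4 (0.90), Igfbp1 (0.88), Ddit4 (0.87) and Cpt1a (0.64) lay to the right of 0. Cited2, Trib1, Ppargc1a and Irs2 lay to the left of 0 at that age. In liver Igfbp1 lay at 0.15 and Ddit4 at -0.87, with overlapping groups and neither past the threshold. Ddit4 was above background on 3 of 4 liver SL arrays.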

How the data were processed

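Total RNA was measured on Affymetrix arrays, with cRNA prepared from 6 ug of RNA per the labels' protocols. The deposited values are log2 probe set summaries that the authors made with RMA in the oligo package, per the submitters' processing notes (version not given in the sources used here). Nothing states which arrays shared an RMA run. No further normalization was applied. Of 29129 probe sets, 6923 were controls, 19572 named 1 gene and 2634 named none; for 55 genes with several probe sets the brightest was used, leaving 19505 genes. A fold against a group wholly below background is computed against the background and given as "at least".

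Groups were compared with limma 3.58.1 in R 4.3.3, on the 8 arrays of a comparison, and differences of the SL effect between ages as interaction terms over 24 arrays. P-values are two-sided and adjusted by Benjamini-Hochberg over 19505 genes, with a threshold of 0.05; the script was tested on simulated data. Replicate numbers are shared between groups, but the deviations of samples with the same number were only weakly correlated (from -0.166 to 0.116), so no pairing was used. Between arms in liver, 3 of 4 samples still correlated best with their own number. The same held for 3 of 4 between ED7.5 and ED14.5 in SL. No 2 arrays shared values beyond 2 genes. All 10 genes are named. For the age comparisons of the related lists, up to 3 genes per list and comparison were picked. These had the largest age difference past the threshold in both arms with no overlap of groups. Only some of the genes so picked are named in the text. Any listed gene past the threshold between arms is named. In the comparison of arms at ED14.5, the measured members of the fasting and growth hormone lists were named after their values were seen, as was Ddit4 in liver. The 3 nearest genes are given for members whose control age means span over 2 log2 units. The members and lists were chosen with earlier results of these data known. Promoter sequences and neighbours are RefSeq's (GRCm38.p6), matched by symbol for 10 of 10 genes, with 16 windows. Motifs searched on both strands were the FOXO core CAAAACA (in 5.56% of windows), the forkhead core TGTTTAC (3.17%), the STAT pattern TTCNNNGAA (7.02%), the HNF1 motif (0.009%) and the Sp1 box GGGCGG (32.7%), and on the gene strand the TATA box TATAAA (7.59%). Alternatives were another variance model, array weights, a filter on dim genes, the mean of several probe sets, quantile normalization, a replicate block, a fit of all arrays and leaving out each array.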

Additional observations from a re-analysis of the deposited data

Results flagged for a closer look

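In 3 of 60 checks of a gene in a group, 1 array stood apart from the other 3 by a gap of more than 0.829 of the group's range; chance gives about 1 in 20. Igf1r read 6.00 on 1 ED7.5 SL array against 6.59 on the nearest (gap 0.871 of the range). Igf1r also read 6.28 on 1 liver SL array against 6.79 on the nearest (0.877). Igfbp1 read 9.19 on 1 ED14.5 control array against 8.71 on the nearest (0.864), and without that array the SL difference was 1.01 (adjusted p = 0.155, limma). The difference between arms changed with age for Pdk4, by 1.40 from ED7.5 to ED14.5, and for Ddit4, by -1.74 from ED14.5 to liver. Both genes lay near background on ED14.5 control arrays, each above it on 3 of 4.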

How the results depend on the processing

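The number of the 10 genes past the threshold kept within 1.5 times its value under every alternative, for the comparisons between arms, between ages and of the SL effect, with 1 exception. At ED14.5 it went from 0 to 1, Igfbp1, when the variance prior followed intensity and was fitted robustly. Over all genes the calls at ED14.5 were then 283, against 10, with 99 without the dimmest genes and 79 in the fit of all arrays; at ED7.5 the last gave 12 against 1, and the first 3. In liver the fit of all arrays gave 5 against 0. Counts for the change of the SL effect ran from 13 to 46 between ED7.5 and ED14.5 (15 as reported), from 4 to 28 between ED14.5 and liver (5) and from 0 to 2 between ED7.5 and liver (1). Leaving out each array gave 0 genes in each comparison between arms, and 9 to 10 from ED14.5 to liver in each arm. Igf2 from ED14.5 to liver in controls reversed to -0.022 under quantile normalization, and its adjusted p was 0.0507 with array weights, 0.111 with the replicate block and 0.36 in the fit of all arrays; in SL it was 0.74, 0.061 and 0.252 with quantile normalization, the block and the fit of all arrays. The cause was not tested. Since samples share only a number, the replicate block is no pairing; with it Angptl4 at ED14.5 had an adjusted p of 0.202, and 0 genes passed there in place of 10. The call for Ddit4 was lost with array weights (adjusted p = 0.0656).

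Small differences between arms changed sign. These were Igfbp1 at ED7.5 (0.014) and, in liver, Igfbp4 (0.0089) and Igfals (0.0038) with array weights, and Igf1r (0.0051), Igfbp2 (-0.015) and Igfbp4 (0.013) in liver with quantile normalization. Without 1 array the ED7.5 differences ran from -0.040 to 0.21 for Igf1r, -0.093 to 0.0057 for Igf2r, -0.23 to 0.14 for Igfbp1, -0.26 to 0.088 for Igfbp2, -0.076 to 0.037 for Igfbp3, -0.12 to 0.020 for Igfbp4, -0.074 to 0.27 for Igfbp5 and -0.47 to 0.029 for Igfals. At ED14.5 they ran from -0.042 to 0.0056 for Igf2. In liver they ran from -0.044 to 0.091 for Igf1, -0.0033 to 0.081 for Igf2, -0.15 to 0.095 for Igf1r, -0.019 to 0.026 for Igfbp2, -0.010 to 0.14 for Igfbp3, -0.028 to 0.034 for Igfbp4 and -0.13 to 0.055 for Igfals. The cause was not tested. Igfbp1 and Igfals at ED7.5 were below background and dropped out of the filter on dim genes, which kept 8 of the 10 genes there.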
